A study of Mus musculus with 16 samples.

Results

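Collagen chain genes were all genes whose symbol has the form Col, a number, a and a number, and every probe that carried such a symbol was kept. They were 37 of the 16593 gene symbols, with 59 probes among the 25697 probes of a single-colour Illumina bead array. Membership was set by the symbol. The arrays held RNA from liver and brain of 8 male C57BL/6J mice aged 17 weeks. There were 4 mice homozygous for the Pts-R15C-ki allele and 4 wild-type mice, with 1 liver and 1 brain array from each mouse, which makes 16 arrays in 4 groups of 4. Pts encodes pyruvoyl-tetrahydropterin synthase, which acts in the synthesis of tetrahydrobiopterin, and the series title concerns a mild defect of that synthesis and the distribution of body fat.

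Collagens are proteins of the extracellular matrix whose chains wind around each other into a triple helix. The fibrillar chains form the cable-like fibrils of connective tissue, collagen IV forms the sheet of basement membranes, collagen VI forms beaded microfibrils, and the fibril-associated chains sit on the surface of fibrils. Transmembrane collagens are anchored in cells, and the multiplexins, collagens XV and XVIII, carry sugar chains and lie at basement membranes. In a healthy liver the matrix is sparse and is made by stellate cells, endothelium and, for collagen XVIII, hepatocytes. In brain most collagen lies in the walls of vessels, the meninges and the choroid plexus.

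Of the 37 genes, 25 had 1 probe and 12 had several, with up to 5 for Col25a1. A probe is called detected where its detection p-value, the position of its signal among the negative control beads, was under 0.05. By that rule 19 of the 59 probes were detected on 0 of 16 arrays, 12 on 1 to 3 arrays and 7 on all 16. All probes of 6 genes were detected on 0 arrays. Testing in a tissue required detection on at least 4 of its 8 arrays, which left 16 probes of 14 genes in liver and 20 probes of 17 genes in brain. In all, 10 genes were tested in both tissues, 4 in liver alone, 7 in brain alone and 16 in neither.

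**Figure D1:**
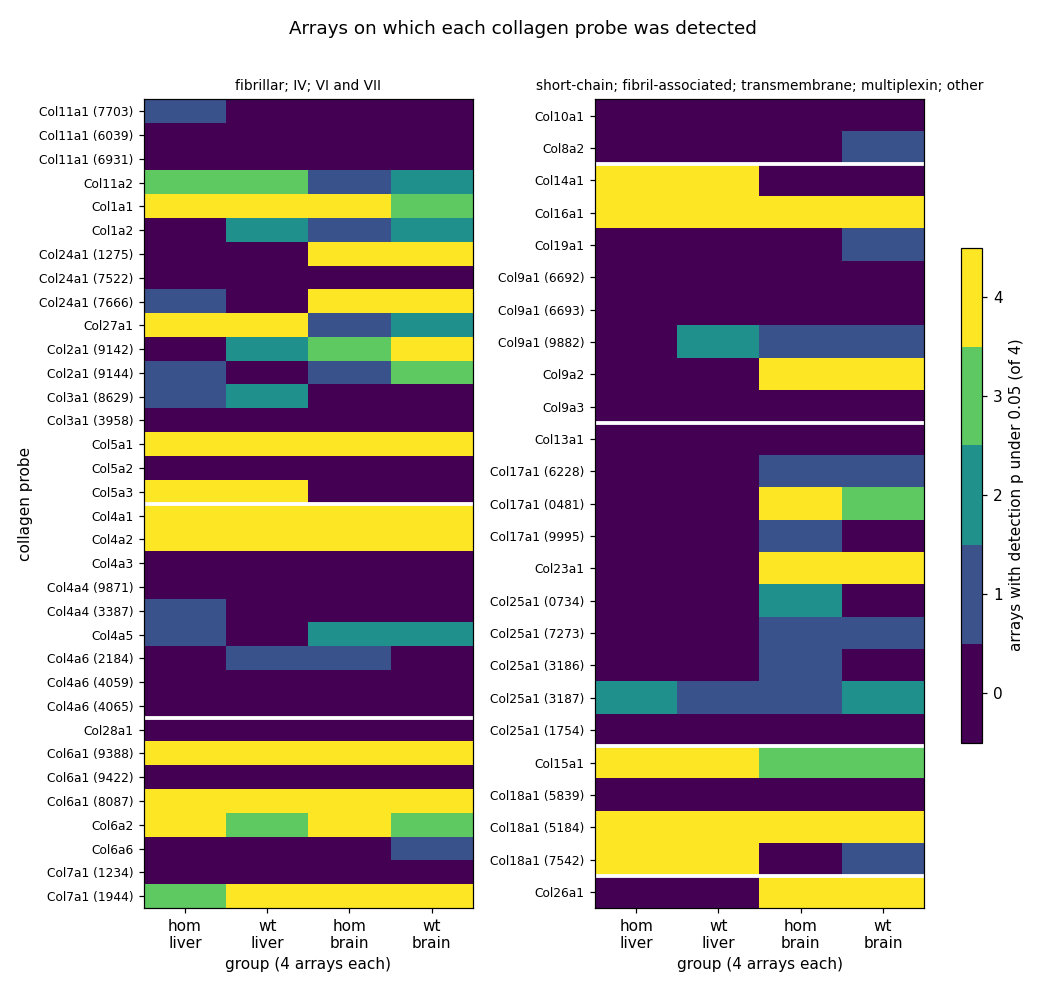
Number of arrays, of 4 in each group, on which each of the 59 collagen probes had a detection p-value under 0.05. Each row is a probe, with the last 4 characters of its identifier where a gene has several, white lines separate the collagen classes, and columns are homozygous and wild-type liver and homozygous and wild-type brain. Rows such as Col4a1, Col5a1 and Col16a1 were detected on all 16 arrays, Col14a1 and Col5a3 on liver arrays only, and Col9a2, Col23a1 and Col26a1 on brain arrays only.

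Detection divided the classes. Of the 11 fibrillar genes, 5 were tested in liver (Col1a1, Col5a1, Col5a3, Col11a2 and Col27a1) and 4 in brain (Col1a1, Col2a1, Col5a1 and Col24a1). Col1a2, the partner chain of Col1a1 in collagen I, was detected on 2 of 8 liver and 3 of 8 brain arrays, and Col3a1, the chain of collagen III, on 3 liver arrays by the better of its probes. Of the 6 collagen IV genes, Col4a1 and Col4a2, the pair found in nearly all basement membranes, were tested in both tissues and Col4a5 in brain. Of the 5 genes of collagens VI, VII and XXVIII, Col6a1, Col6a2 and Col7a1 were tested in both tissues. Col10a1, a chain of growth-plate cartilage, and Col8a2, known from the cornea, were not tested in either. Of the 6 fibril-associated genes, Col14a1 was tested in liver, Col9a2 in brain and Col16a1 in both. Of the 4 transmembrane genes, Col17a1 and Col23a1 were tested in brain and none in liver. Col15a1 and Col18a1, the multiplexins, were tested in both tissues, and Col26a1 in brain.

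Stretches before a gene's start are shown for Col18a1, which had the largest tissue difference toward liver, and for Col9a2 and Col24a1, which differed toward brain. They were chosen after these values were seen. Each is the 250 bases upstream of an annotated start in RefSeq, build GRCm38.p6, read 5′ to 3′ on the gene's strand, with capitals marking GC boxes (GGGCGG on either strand). The first Col18a1 stretch, on the minus strand at chr10:77166531-77166780, holds 3 GC boxes. The second Col18a1 stretch, on the minus strand at chr10:77113706-77113955, lies inside the gene before a start 52825 bases further on and holds 0. The Col9a2 stretch, on the plus strand at chr4:121039316-121039565, holds 2, and the Col24a1 stretch, on the plus strand at chr3:145292222-145292471, holds 0.
Col18a1, first start: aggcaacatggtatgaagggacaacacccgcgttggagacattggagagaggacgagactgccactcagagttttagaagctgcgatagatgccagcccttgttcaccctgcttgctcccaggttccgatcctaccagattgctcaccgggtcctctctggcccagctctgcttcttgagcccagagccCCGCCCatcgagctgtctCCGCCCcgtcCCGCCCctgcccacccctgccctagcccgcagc
Col18a1, second start: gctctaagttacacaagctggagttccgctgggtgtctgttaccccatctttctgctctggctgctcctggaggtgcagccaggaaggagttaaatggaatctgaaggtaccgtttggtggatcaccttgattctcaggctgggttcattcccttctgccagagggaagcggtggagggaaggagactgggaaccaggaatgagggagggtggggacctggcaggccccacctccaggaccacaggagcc
Col9a2: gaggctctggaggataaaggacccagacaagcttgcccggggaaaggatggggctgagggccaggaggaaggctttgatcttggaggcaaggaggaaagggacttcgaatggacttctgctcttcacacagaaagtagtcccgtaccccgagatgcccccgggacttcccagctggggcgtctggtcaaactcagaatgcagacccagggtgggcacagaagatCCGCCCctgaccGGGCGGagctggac
Col24a1: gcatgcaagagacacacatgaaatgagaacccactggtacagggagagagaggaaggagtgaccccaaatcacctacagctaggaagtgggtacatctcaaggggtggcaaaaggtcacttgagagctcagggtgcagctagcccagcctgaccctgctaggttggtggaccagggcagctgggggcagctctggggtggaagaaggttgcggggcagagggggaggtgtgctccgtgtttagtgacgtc

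Upstream windows were found for 30 of the 37 genes, with 33 windows in all. A GC box stood in 19 of them (57.6%), against 32.7% of all 32851 windows of that length. The letters CCAAT, searched on both strands, stood in 36.4% of the collagen windows and 33.8% of all windows, and TATAAA in 15.2% of collagen and 12.4% of all windows. These shares describe letters in a window and are not binding sites. Col4a1 and Col4a2 have start sites 21 bases apart on opposite strands, and the starts of Col4a5 and Col4a6 lie 1343 bases apart. Pts lies on chromosome 9 with Col5a3, Col6a6 and Col7a1, and 0 of these lie within 20 Mb of it.

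Between 11785 and 12315 probes were detected on each liver array and between 13241 and 14576 on each brain array. Pts signal was 9.54 to 9.72 on the log2 scale in homozygous livers and 8.78 to 9.24 in wild-type livers by its brighter probe, a difference of 0.58 (SE 0.12, adjusted p = 0.0541 by limma). In brain it was 8.69 to 9.24 in homozygous and 8.30 to 8.77 in wild-type mice, a difference of 0.39 (SE 0.15) that did not pass. By the dimmer Pts probe the difference was 0.90 (SE 0.20) in liver and 0.70 (SE 0.19) in brain, and neither passed. Markers matched the labelled tissues in part: the neuronal genes Gad1, Nefl, Slc17a7, Snap25 and Stmn2 were detected on 0 liver arrays and the hepatocyte genes Alb, Pck1 and Tat on 0 brain arrays, while Nefl and Snap25 were also detected on 0 brain arrays. Of 7 neuronal genes on the array, 2 were detected on enough liver arrays to be tested. Of 8 hepatocyte genes, 3 were detected on enough brain arrays to be tested. Wild-type livers 1 and 2 stood apart, at -43.8 and -46.5 on a first principal component with 62.2% of the liver variance, where the other 6 livers lay between 2.79 and 20.9. Brain arrays fell into a brighter set (homozygous mice 1 and 2, wild-type mice 1 and 3) and a dimmer set of 2 arrays of each genotype, with a 75th percentile of signal of 302 to 343 in the brighter and 241 to 271 in the dimmer set.

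In liver the comparison asked whether collagen transcripts differ between homozygous and wild-type mice. Values below are log2 signal after background correction and quantile normalization within the tissue, on which a probe without signal reads about 4.2 and the dimmest detected probe of a liver array read 4.63 to 4.70. Each change is the homozygous mean minus the wild-type mean on that scale, from a limma fit across all tested probes with 4 mice per genotype, and comes with its standard error (SE) and Benjamini-Hochberg adjusted p. None of the 16 collagen probes passed the threshold of 0.05, where 0.903% of all 11955 liver probes did. At an unadjusted p under 0.05 there were 8 collagen probes, 1 higher and 7 lower in homozygous livers, where 22.6% of all probes had such a p, 11.8% higher and 10.7% lower. The genotypes did not overlap for 4 collagen probes, 3 lower in homozygous livers and 1 higher, where 13% of all probes did not overlap, 6.22% lower and 6.73% higher. The median collagen change was -0.27 against 0.02 for all probes, and 12 of 16 collagen probes lay below 0, where 46.5% of all probes did. Without wild-type livers 1 and 2, 0 passed, the median was -0.39 against 0.0054 for all probes, and 14 of 16 collagen probes lay below 0.

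Col1a1, the main chain of collagen I and of scar tissue, read 4.97, 5.14, 4.99 and 4.66 in homozygous livers and 6.36, 5.90, 5.33 and 6.49 in wild-type livers. All 4 homozygous livers lay below all 4 wild-type livers, and the homozygous values lay close to the dimmest detected level. The change was -1.08 (SE 0.24, 95% interval -1.61 to -0.55, adjusted p = 0.0625 by limma). Without wild-type livers 1 and 2 it was -0.98 (adjusted p = 0.212), and without wild-type liver 3 it was -1.31 and passed (adjusted p = 0.00985, both by limma). Leaving out wild-type liver 3 raised the share of all liver probes that passed from 0.903% to 8%. The other fibrillar chains were closer to 0. Col27a1, a minor fibrillar chain, read 5.72, 6.26, 6.29 and 5.95 in homozygous livers and 6.35, 5.97, 7.21 and 6.23 in wild-type livers, with overlap, a change of -0.38 (SE 0.25) that was -0.13 without wild-type liver 3. Col5a1, a chain of collagen V, which sets fibril diameter, read 6.10, 5.91, 6.22 and 6.40 in homozygous livers and 6.16, 6.16, 6.22 and 7.02 in wild-type livers. Its change of -0.23 (SE 0.20) rested largely on wild-type liver 4, and was -0.02 without it. Col5a3 at 0.16 and Col11a2 at -0.18 had intervals that held 0.

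Col4a1 and Col4a2, the basement membrane pair, both read lower on average in homozygous livers. Col4a1 read 7.85, 7.93, 7.56 and 7.63 in homozygous livers and 9.48, 9.20, 7.82 and 8.39 in wild-type livers. Wild-type livers 1 and 2 were the highest, and wild-type liver 3 lay inside the homozygous range. The Col4a1 change was -0.98 (SE 0.32, 95% interval -1.69 to -0.26, adjusted p = 0.134 by limma), and it was -0.36 without wild-type livers 1 and 2. Without wild-type liver 3 it was -1.28 and passed (adjusted p = 0.0231 by limma), where 8% of all probes then passed. Col4a2 read 6.79, 7.30, 6.91 and 6.58 in homozygous livers and 7.66, 7.47, 7.23 and 7.47 in wild-type livers. Only homozygous mouse 2 and wild-type mouse 3 crossed, and the change was -0.56 (SE 0.16, adjusted p = 0.108 by limma), or -0.45 without wild-type livers 1 and 2.

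Col15a1 and Col18a1, the multiplexins, read on opposite sides of 0. Col15a1 read 4.91, 5.42, 5.32 and 5.02 in homozygous livers and 6.04, 6.20, 5.53 and 6.02 in wild-type livers, with no overlap. Its change of -0.78 (SE 0.17, 95% interval -1.16 to -0.40, adjusted p = 0.0621 by limma) had the smallest p of the collagen probes in liver. It was -0.61 (adjusted p = 0.235) without wild-type livers 1 and 2, and -0.92 (adjusted p = 0.0184, both by limma) without wild-type liver 3. In that last setting 8% of all probes passed. Col18a1, whose protein gives rise to endostatin, had 3 probes. The probe ending in 5184 read 12.91, 12.82, 12.84 and 12.82 in homozygous livers and 12.36, 12.46, 12.83 and 12.68 in wild-type livers, a change of 0.26 (SE 0.12, adjusted p = 0.228 by limma) that was 0.09 without wild-type livers 1 and 2. The probe ending in 7542 read 9.40, 9.33, 9.29 and 9.27 in homozygous livers and 8.58, 8.47, 9.04 and 9.08 in wild-type livers. It was the collagen probe that lay wholly above the wild-type range, at 0.53 (SE 0.15, adjusted p = 0.105 by limma), with wild-type livers 1 and 2 lowest. The third probe, ending in 5839, was detected on 0 of 16 arrays.

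None of the probes of collagens VI and VII or of the fibril-associated chains passed. Col6a1, a chain of the beaded microfibrils, read 6.95, 6.68, 7.23 and 6.95 in homozygous livers and 7.02, 7.00, 7.29 and 7.71 in wild-type livers by the probe ending in 8087. The groups overlapped, with wild-type liver 4 highest, and the change was -0.30 (SE 0.18), or -0.54 without wild-type livers 1 and 2 and -0.15 without wild-type liver 4. The probe ending in 9388 read -0.35 (SE 0.15), and Col6a2, a partner chain, read -0.06 (SE 0.13). Col7a1, the chain of the anchoring fibrils, read 4.87, 4.77, 4.94 and 4.58 in homozygous livers and 4.97, 5.10, 5.07 and 4.99 in wild-type livers. Homozygous livers lay wholly below, at -0.24 (SE 0.10, adjusted p = 0.21 by limma), and the values of both groups lay close to the dimmest detected level. Col16a1, a fibril-associated chain, read 5.66, 5.29, 5.87 and 5.49 in homozygous livers and 5.80, 5.76, 6.18 and 6.15 in wild-type livers, overlapping, at -0.40 (SE 0.15, adjusted p = 0.18 by limma). Col14a1, another fibril-associated chain, lay between 5.48 and 5.55 in the 4 homozygous livers and at 5.05, 4.89, 5.53 and 5.61 in wild-type livers. Its mean difference of 0.24 (SE 0.16) came with low values in wild-type livers 1 and 2.

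**Figure D2:**
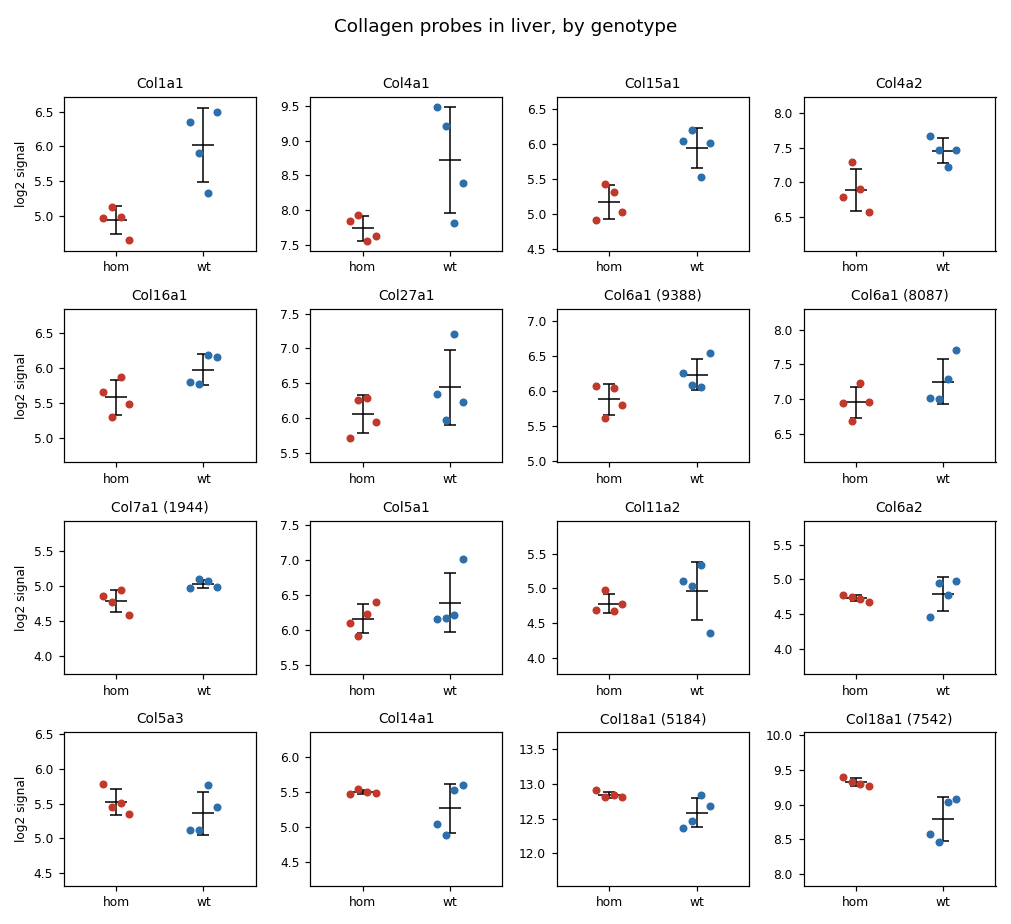
Log2 signal (vertical axes) of the 16 tested collagen probes in liver, with 1 panel per probe, 4 homozygous arrays on the left and 4 wild-type arrays on the right, in order of replicate. Points are arrays, and the lines are the mean ± SD. Col1a1 and Col15a1 did not overlap between genotypes, and Col4a1 overlapped through wild-type liver 3 at 7.82.

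The direction of the liver changes was set beside cell type markers, since in whole tissue fewer cells of a type and less RNA per cell cannot be told apart. Among all 11955 tested liver probes, 0.903% passed and 46.5% lay below 0. Of 6 tested genes of macrophages and Kupffer cells, the resident macrophages of liver, 2 fell: Vsig4, a complement receptor, by 1.04 (adjusted p = 0.0418) and C1qb, a complement subunit, by 1.00 (adjusted p = 0.0443, both by limma). All 6 were lower on average, and their summed level was 615 to 811 in homozygous and 1068 to 1398 in wild-type livers, while Cd5l was detected on 0 arrays. Of 2 tested neutrophil and monocyte genes both were lower on average, with a median change of -4.29. S100a8 fell by 2.51 (adjusted p = 0.0491 by limma), while the other gene changed more and did not pass. The summed level was 60 to 126 in homozygous and 515 to 30697 in wild-type livers, with wild-type livers 1 and 2 the highest on average. Camp, Ccr2 and Ngp were detected on 0 liver arrays. Stellate cells are the main collagen-making cells of liver, and 0 of 6 tested markers passed, with 4 higher and 2 lower on average. Their summed level was 2389 to 3171 in homozygous and 1258 to 3008 in wild-type livers, with wild-type livers 1 and 2 the lowest on average. Of 6 tested genes of the fibroblast and meninges list 0 passed, with 5 higher and 1 lower on average. Of the activated stellate cell and myofibroblast list, Acta2, the smooth muscle actin, was the only tested gene of 5 on the array, at -0.64 (adjusted p = 0.279), and Cnn1 was detected on 0 arrays. Hepatocyte markers summed to 101962 to 106430 in homozygous and 86564 to 103177 in wild-type livers, and endothelial markers to 3426 to 4196 in homozygous and 3950 to 4441 in wild-type livers. None of the 7 tested hepatocyte genes passed, with 6 higher and 1 lower on average. None of the 8 tested endothelial genes passed, with 3 higher and 5 lower on average. Of 3 tested blood genes 0 passed, and they summed to 16405 to 20467 in homozygous and 9632 to 12941 in wild-type livers. Whether these markers play a part in the collagen values was not tested.

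In brain none of the 20 collagen probes passed between genotypes, where 0.0144% of 13862 probes did. At an unadjusted p under 0.05 there were 0 collagen probes by limma, against 3.2% of all probes, and 0 were free of overlap, against 2.06%. The median collagen change was -0.02 against 0.0046 for all probes, and every adjusted p rounded to 1. Col4a2 read 7.96, 7.83, 7.63 and 7.61 in homozygous brains and 8.30, 8.29, 8.16 and 7.67 in wild-type brains. Homozygous brains were lower on average with overlap through wild-type mouse 4, at -0.35 (SE 0.16, 95% interval -0.70 to 0.01). Col4a1, its partner chain, read 7.97, 8.04, 7.74 and 7.79 in homozygous brains and 8.71, 8.00, 8.30 and 7.77 in wild-type brains, at -0.31 (SE 0.19).

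Col1a1 was on the other side of 0 in brain. It read 5.61, 5.46, 5.14 and 5.49 in homozygous brains and 4.89, 4.62, 5.63 and 5.03 in wild-type brains, where wild-type mouse 3 was the highest of all 8. The change was 0.38 (SE 0.20, 95% interval -0.07 to 0.84). Col17a1, a transmembrane chain of hemidesmosomes, read 0.25 (SE 0.17), Col6a2 0.22 (SE 0.23) and Col5a1 -0.17 (SE 0.16). Col24a1, a fibrillar chain, read 0.27 (SE 0.19) by the probe ending in 1275 and 0.04 (SE 0.14) by the probe ending in 7666. Col16a1 read 8.41, 8.28, 9.20 and 9.14 in homozygous brains and 8.46, 8.82, 8.77 and 8.88 in wild-type brains, with homozygous mice at both ends and a change of 0.02 (SE 0.22). Col18a1, by the probe ending in 5184, read 8.26, 8.38, 8.73 and 8.60 in homozygous brains and 8.17, 8.77, 8.24 and 8.59 in wild-type brains, at 0.05 (SE 0.16). Col15a1, which did not overlap in liver, read 5.25, 5.32, 5.27 and 4.74 in homozygous brains and 5.82, 4.77, 5.47 and 5.01 in wild-type brains, at -0.12 (SE 0.23).

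The chains tested in brain alone showed small changes. Col9a2, which joins collagen II fibrils in cartilage, read 6.78, 6.83, 6.39 and 7.02 in homozygous brains and 7.05, 6.99, 6.81 and 6.67 in wild-type brains, at -0.13 (SE 0.15). Homozygous mice held both the lowest and nearly the highest value. Col26a1 read 6.34, 5.98, 6.91 and 6.84 in homozygous brains and 6.11, 6.87, 6.22 and 6.70 in wild-type brains, at 0.04 (SE 0.24). Col23a1, a transmembrane chain, read 6.04, 6.11, 5.84 and 5.85 in homozygous brains and 5.88, 5.87, 6.20 and 6.08 in wild-type brains, at -0.05 (SE 0.12), within the narrowest interval of the collagen probes in brain (-0.32 to 0.22). Col2a1, the fibrillar chain of cartilage, read -0.14 (SE 0.15) and -0.12 (SE 0.21) by its probes, both near the dimmest detected level of the brain arrays, 4.75 to 4.95. Col4a5, a collagen IV chain known from kidney, read 0.12 (SE 0.19) and was detected on 2 arrays of each genotype.

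Array brightness divided several collagen probes in brain, as it did many probes of the array, with the genotypes balanced across it. Of the 20 probes, 8 did not overlap between the brighter and the dimmer arrays, 3 above and 5 below, where 32.9% of all tested brain probes did not overlap. The Col6a1 probes went opposite ways: the one ending in 8087 averaged 8.96 on brighter and 8.31 on dimmer arrays, and the one ending in 9388 averaged 7.47 on brighter and 8.43 on dimmer arrays. The probe ending in 9388 read 7.55, 7.45, 8.37 and 8.42 in homozygous brains and 7.34, 8.55, 7.54 and 8.38 in wild-type brains, so each genotype held 2 low and 2 high arrays. The genotype changes of Col6a1 were -0.03 (SE 0.23) and -0.01 (SE 0.32), with that spread within both groups. Col16a1 averaged 8.48 on brighter and 9.01 on dimmer arrays. Col26a1 averaged 6.16 on brighter and 6.83 on dimmer arrays, and Col18a1 averaged 8.26 on brighter and 8.67 on dimmer arrays. With brightness as a block, 0 collagen probes passed, and 0 passed within the 4 brighter or the 4 dimmer arrays alone.

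**Figure D3:**
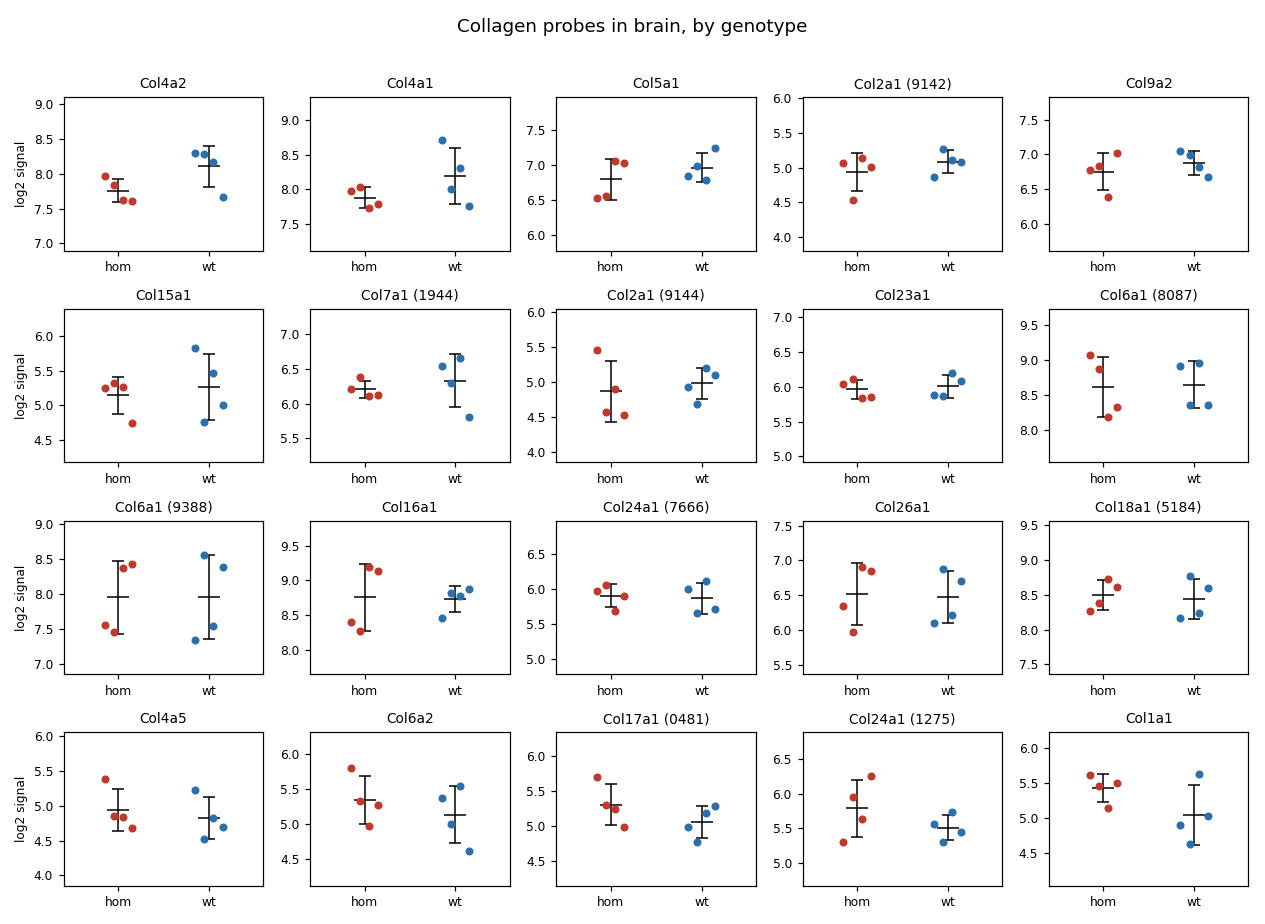
Log2 signal (vertical axes) of the 20 tested collagen probes in brain, with 1 panel per probe, 4 homozygous arrays on the left and 4 wild-type arrays on the right, in order of replicate. Points are arrays, and the lines are the mean ± SD. Both genotypes overlap in every panel, and the Col6a1 panels show 2 arrays of each genotype apart from the other 2.

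The difference between the genotype changes of liver and brain was tested for the 11 collagen probes of 10 genes tested in both tissues. None passed, where 0.0762% of 10492 probes did. At an unadjusted p under 0.05 there were 2, Col1a1 and Col15a1, both lower, where 11.7% of all probes had such a p and 5.94% were lower. Col1a1 had the largest difference, at -1.46 (SE 0.33, 95% interval -2.16 to -0.77, adjusted p = 0.149 by limma), from -1.08 in liver and 0.38 in brain. It was -1.07 (adjusted p = 0.802) without wild-type mice 1 and 2. Without wild-type liver 3 it was -1.69 and passed (adjusted p = 0.0101), where 1.7% of all probes then passed. Col15a1 differed by -0.66 (SE 0.30, adjusted p = 0.404) and Col4a1 by -0.67 (SE 0.39, adjusted p = 0.521, both by limma). Of the 11 probes, 10 lay below 0, where 48.4% of all probes did, and Col18a1, at 0.21 (SE 0.21), was the exception.

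**Figure D4:**
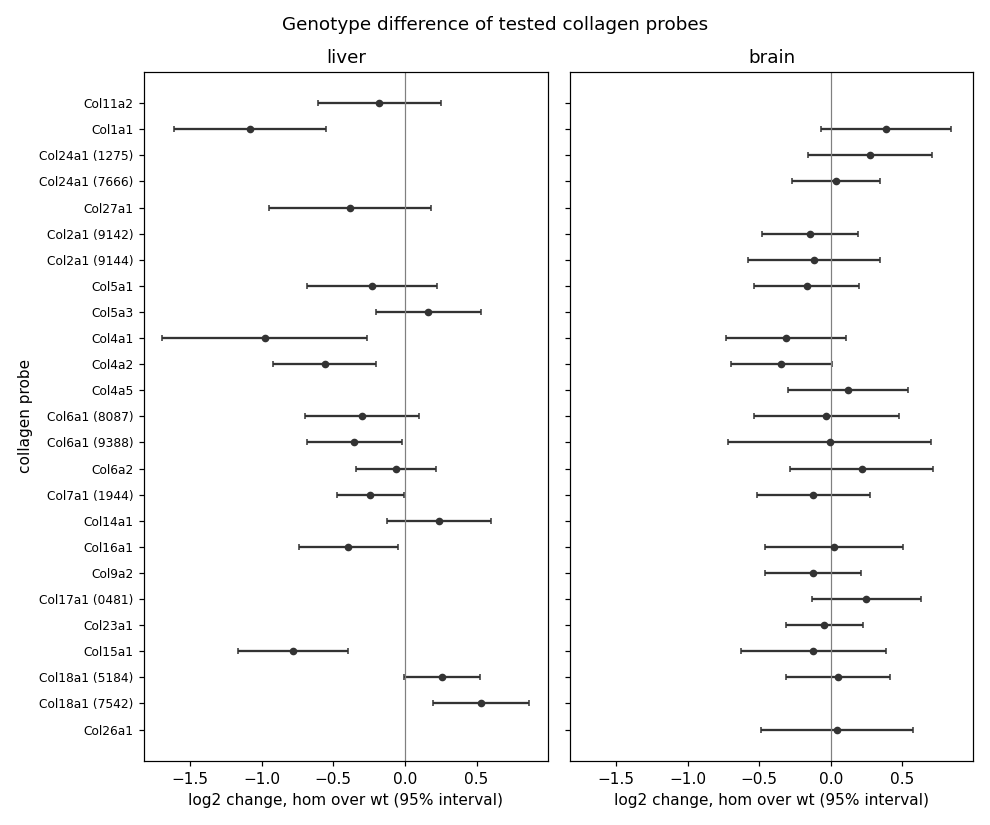
Log2 change of homozygous over wild-type mice (horizontal axes) for every tested collagen probe, in liver (left panel) and in brain (right panel), with 95% intervals of the limma fit. Rows without a point in a panel were not tested in that tissue. In liver Col1a1, Col4a1 and Col15a1 lie farthest below 0 and the Col18a1 probe ending in 7542 farthest above, and in brain every interval holds 0.

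The tissues differed in many collagen chains, as they did in most probes of the array. All 16 arrays were normalized together for this comparison, and changes are log2 of liver over brain. Of 28 collagen probes of 24 genes, 20 passed, 10 higher and 10 lower in liver by the fit. One of the 10 higher, Col9a1, lay near the dimmest detected signal in both tissues. The share was no larger than the background, since 83% of all 15712 probes passed, 42.2% higher and 40.9% lower. The tissues did not overlap for 12 of the 28 probes, against 59.6% of all probes.

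Col18a1 had the largest difference toward liver. The probe ending in 5184 read 12.64, 12.56, 12.58 and 12.56 in homozygous livers and 12.16, 12.25, 12.58 and 12.44 in wild-type livers, against 8.01, 8.14, 8.51 and 8.38 in homozygous brains and 7.91, 8.55, 7.99 and 8.37 in wild-type brains. No liver array came near a brain array, and the difference was 4.24 (SE 0.10, adjusted p = 4.44e-17 by limma), or 18.9-fold on this scale. The probe ending in 7542 ranged from 8.70 to 9.55 in liver and from 4.27 to 4.89 in brain, where it was detected on 1 of 8 arrays. Against the dimmest detected signal of the brain arrays it was at least 22.8-fold higher in liver (adjusted p = 2.67e-18 by limma). The sequences above show that this gene has more than 1 annotated start, and the table of probes does not say which transcripts each probe reads.

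Other chains higher in liver came from several classes. Col27a1 averaged 6.67 ± 0.41 in liver and 4.64 ± 0.28 in brain (SD, n = 8), where it was detected on 3 of 8 arrays, and was at least 3.62-fold higher in liver (adjusted p = 8.62e-10 by limma). Col5a3, a chain of collagen V, was detected on 8 liver and 0 brain arrays, at 5.91 ± 0.25 in liver against 4.43 ± 0.08 in brain. It was therefore at least 2.32-fold higher in liver (adjusted p = 9.54e-11 by limma), a bound set by the dimmest detected signal of the brain arrays. Col14a1 was also detected on 8 liver and 0 brain arrays, at 5.85 ± 0.29 in liver against 4.43 ± 0.15 in brain, at least 2.23-fold higher (adjusted p = 7.85e-10 by limma). Col15a1 was higher by 1.04 (SE 0.13), Col1a1 by 0.92 (SE 0.15) and Col4a1 by 0.71 (SE 0.19), with tissues that overlapped. Col11a2, detected on 6 liver and 3 brain arrays, was at least 1.42-fold higher in liver (adjusted p = 0.000455 by limma). Col9a1, detected on 2 liver and 2 brain arrays, passed in the fit (adjusted p = 0.0178 by limma), but its means of 4.90 in liver and 4.62 in brain lay below the mean of the dimmest detected signals in each tissue, and no direction is read from it. Col1a1 passed in wild-type mice alone and not in homozygous mice alone, and whether these differ is the test of -1.46 above, which did not pass.

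Several chains lower in liver than in brain were detected on 0 liver arrays. Col9a2, a chain of collagen IX, which is known from cartilage, averaged 4.42 ± 0.08 in liver and 6.48 ± 0.23 in brain (SD, n = 8), at least 2.82-fold lower in liver (adjusted p = 2.89e-13 by limma). Col26a1, known from testis and ovary, averaged 4.29 ± 0.04 in liver and 6.15 ± 0.39 in brain, at least 2.24-fold lower (adjusted p = 4.69e-10 by limma). Col23a1, a transmembrane chain, averaged 4.33 ± 0.11 in liver and 5.64 ± 0.13 in brain, at least 1.57-fold lower (adjusted p = 1.58e-11 by limma). Col16a1 was detected on all 16 arrays, at 6.23 ± 0.29 in liver and 8.53 ± 0.36 in brain, and was lower by -2.30 (SE 0.14). Both Col6a1 probes were lower, by -0.96 (SE 0.15) and -1.19 (SE 0.20), beside the brightness split of these probes in brain. Both Col24a1 probes were lower too: the one ending in 7666, detected on 1 of 8 liver arrays, was at least 1.45-fold lower in liver (adjusted p = 8.53e-08 by limma), and the one ending in 1275, detected on 0 liver arrays, was at least 1.27-fold lower (adjusted p = 7.32e-07 by limma). Col7a1 differed by -0.60 (SE 0.11). Col17a1, detected on 0 liver and 7 brain arrays, passed as lower in liver (adjusted p = 0.0026 by limma), with a brain level too near the dimmest detected signal to give a bound.

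Col4a2 and Col5a1, detected on all 16 arrays, did not pass between tissues. Col4a2 differed by -0.14 (95% interval -0.38 to 0.10) and Col5a1 by 0.15 (95% interval -0.13 to 0.43). Col6a2, a partner of Col6a1, differed by 0.12 (95% interval -0.16 to 0.39), and Col1a2, Col4a5, Col25a1 and both Col2a1 probes also did not pass. The collagen IV pair thus read differently: Col4a1 passed and Col4a2 did not, and the difference between them was not tested.

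**Figure D5:**
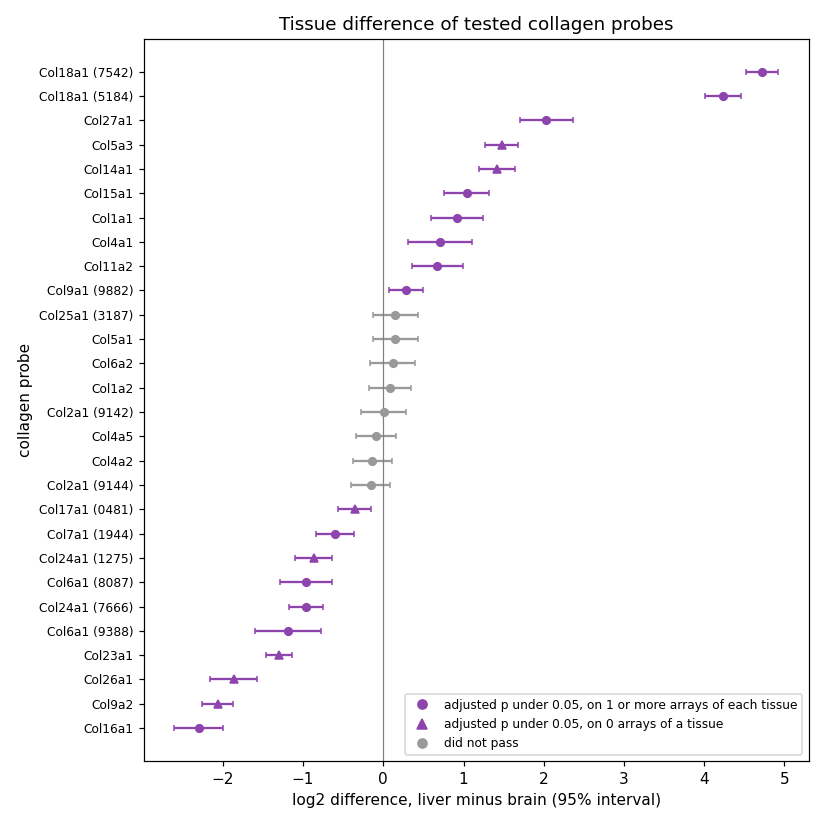
Log2 difference, liver minus brain (horizontal axis), of the 28 tested collagen probes with 95% intervals of the limma fit, ordered by size. Filled circles passed and were detected on at least 1 array of each tissue, triangles passed but were detected on 0 arrays of 1 tissue, and grey circles did not pass. Points are fitted differences and not bounds, also where a probe was detected on few arrays of a tissue. The 2 Col18a1 probes stand farthest to the right, and Col16a1 stands lowest at -2.30.

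Genes that make, process, break down or sense collagen did not pass between genotypes either. In liver 0 rose and 0 fell of 12 tested genes of procollagen folding and modification, 4 of processing and cross-linking, 7 of degradation and its inhibitors, 3 receptors, 15 of fibrogenic signalling, and 14 fibril and basement membrane partners. The medians of these lists ran from -0.19 to 0.07, against 0.02 for all probes. Plod1, a lysyl hydroxylase of procollagen, was at -0.38 (SE 0.11, adjusted p = 0.115), and P4ha2, a prolyl hydroxylase subunit, at -0.35 (adjusted p = 0.199). Reck, a membrane inhibitor of matrix metalloproteinases, was at 0.67 (SE 0.21, adjusted p = 0.125, by limma), with homozygous livers wholly above wild-type livers. Lum, lumican, which binds collagen fibrils, was at -0.46 (SE 0.14, adjusted p = 0.115, by limma), with homozygous livers wholly below. Plod1 also lay wholly below, as did Plod3, of the folding list, at -0.18. A dimmer probe of P3h1, of the folding list, lay wholly below at -0.35. A dimmer probe of Bmp1, of the processing list, lay wholly above at 0.22. The brightest probes of both P3h1 and Bmp1 overlapped between genotypes. Among all tested liver probes 13% did not overlap. Skil, a repressor of transforming growth factor beta signals, was at -0.65 and Pdgfc, a platelet-derived growth factor, at -0.53, while Ccn2, a matricellular protein induced by transforming growth factor beta, was at 0.52 (adjusted p = 0.164 by limma). Of the 15 fibrogenic signalling genes, 8 were higher and 7 lower on average. The folding and modification list had 2 higher and 10 lower, and the fibril and basement membrane partners 4 higher and 10 lower. Processing and cross-linking had 1 higher and 3 lower, degradation 3 higher and 4 lower, and the receptors 1 higher and 2 lower. Among all tested liver probes 46.5% lay below 0. Pcolce, the enhancer of procollagen C-proteinase, was at -0.34, and Nid1, nidogen of basement membranes, at -0.36.

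In brain 0 rose and 0 fell of 15, 5, 9, 3, 16 and 14 tested genes in those 6 lists, taken in the same order, and every adjusted p rounded to 1. Colgalt2, which puts galactose on collagen, was at 0.33 (SE 0.11) and Nid1 at 0.45 (SE 0.15), and for both homozygous brains lay wholly above wild-type brains. For Tgfbr3, of the fibrogenic signalling list, homozygous brains lay wholly below, at -0.22 (SE 0.10). Of all tested brain probes, 2.06% did not overlap between genotypes. P4ha2 was at -0.32 and Lama1, a laminin chain, at -0.30.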

How the data were processed

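RNA of 16 tissue samples from 8 mice was hybridized to single-colour bead arrays, and the labels put 4 arrays in each group. The deposited signals are linear intensity values without normalization across arrays, each beside a deposited detection p-value from negative control beads. A second deposited table holds intensity values normalized by the authors, with array medians of 140.19 to 140.27 and the same rank order within each array. The submitters' processing notes name GenomeStudio 2011.1, and its settings are not given in the sources used here.

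Signals were background-corrected with nec of limma 3.58.1 in R 4.3.3 (offset 16, detection p-values), quantile-normalized within a tissue, or over all 16 arrays for liver against brain, and put on the log2 scale. Probes with a detection p-value under 0.05 on at least 4 of 8 arrays of a tissue, or 4 of 16 for liver against brain, were fitted with lmFit and eBayes and adjusted over all tested probes by Benjamini-Hochberg, with a threshold of 0.05. The offset shrinks the fold changes of dim probes, and the number of mice limits precision. Levels were compared between probes only to choose a gene's probe and to rank genes by signal. The fit was tested on simulated data with independent noise for each probe and array. At a log2 size of 1 it recovered 89% of changed probes in liver and 88% in brain. Of its calls, 3.59% in liver and 6.5% in brain lay outside the changed probes. The simulation held no array structure such as that of wild-type livers 1 and 2 or of brain brightness.

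A gene was represented by its probe with the highest mean signal in partner lists. Named in each tissue were the 6 collagen genes with the highest signal, the 5 with the largest change and any that passed, and, between tissues, the 5 with the largest difference each way; other genes were named after their values were seen. The collagen genes and the lists were chosen with earlier results of these data known. Gene symbols came from the platform annotation, where 23978 probes carry 1 symbol and 1719 carry none, and all 37 collagen symbols matched RefSeq.

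The animal identifiers in the labels show that liver and brain arrays of the same genotype and number share a mouse. Deviations from the group means of such pairs correlated between -0.00201 and 0.126. Same-numbered mice of different genotype are different animals. The alternatives tried were other background, normalization, filter, variance and weighting choices, blocks, and leaving out arrays. Restriction to brighter or dimmer brain arrays was added after seeing the data.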

Additional observations from a re-analysis of the deposited data

Results flagged for a closer look

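Of 72 sets of 4 arrays examined (each tested collagen probe in each genotype and tissue), 2 held an array far from the other 3 by Dixon's ratio of a gap to the range. Chance alone marks about 1 in 20 sets. Col5a1, a chain of collagen V, read 7.02 in wild-type liver 4, while the other 3 wild-type livers read 6.16 to 6.22 (ratio 0.931). Col15a1, a multiplexin, read 4.74 in homozygous brain 4, while the other 3 homozygous brains read 5.25 to 5.32 (ratio 0.873).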

How the results depend on the processing

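The count of collagen probes that passed in liver was 0, and it was 0 again with no background correction, the authors' values, all arrays normalized together, both other filters, trend and robust variance and without wild-type mice 1 and 2. It was 6 with array weights (Col1a1, Col4a1, Col4a2, Col15a1 and both Col18a1 probes), where 24.5% of all probes passed, against 0.903% without weights. Leaving out 1 array gave 0 to 4, and the 4 (Col1a1, Col4a1, Col15a1 and a Col18a1 probe) came without wild-type liver 3, where 8% of all probes passed. All probes that passed in liver numbered 108, and 0 to 940 when 1 array was left out. In brain the collagen count was 0 in all 20 alternatives. For the liver and brain changes compared, leaving out 1 array gave 0 to 1. Between tissues the count was 20, and 17 to 20 in the alternatives. The cause of these shifts was not tested.

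With the replicate number as a replicate block, 0 collagen probes passed in liver and 0 in brain, and with mouse as a block 0 passed for the difference of changes and 20 between tissues. All probes that passed went to 32 in liver with the block, against 108, and to 3, against 8, for the difference of changes. Same-numbered mice of the 2 genotypes do not pair by design: their deviations correlated between -0.0359 and -0.00182 in liver and between -0.509 and 0.56 in brain, and few arrays correlated best with their own number.

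Some collagen changes near 0 changed sign. In brain Col16a1, at 0.02, was -0.12 with array weights, -0.070 without wild-type mice 1 and 2, -0.27 in the brighter and 0.32 in the dimmer arrays, and -0.12 to 0.18 when 1 array was left out. Col6a1 in brain, at -0.03, was 0.034 in the brighter arrays and -0.19 to 0.11 when 1 was left out. Col18a1 in brain, at 0.05, was -0.011 in the dimmer arrays and -0.038 to 0.16 when 1 was left out. The difference of changes of Col5a1, at -0.06, was -0.16 to 0.14 when 1 was left out. Tissue differences of dim probes shrank without background correction or with the authors' values, with Col9a2 between -2.17 and -0.66 over all alternatives.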
